A study of Mus musculus with 6 samples.

Results

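The genes described here are receptors of myostatin (MSTN) and related ligands, and SMAD proteins that carry or inhibit the signal. They were taken as a list of 10 gene symbols, namely *Acvr2a*, *Acvr2b*, *Acvr1b*, *Tgfbr1*, *Tgfbr2*, *Smad2*, *Smad3*, *Smad4*, *Smad6* and *Smad7*. All 10 were among the 14548 genes in the expression files, and 9 of them were above the filter on low values that left 10837 genes for testing. RNA-seq had been performed on C2C12 cells, a mouse myoblast line grown in medium with fetal bovine serum, with 3 WT libraries and 3 MSTN-KO libraries. WT denotes the unedited cells. MSTN-KO denotes the line C11, made by electroporation of a Cas9 plasmid with a guide to the last exon of *Mstn*, so every MSTN-KO library comes from 1 edited line. The strain label C11 also stands on the WT samples, so grouping followed the labelled genotype.

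MSTN is a secreted ligand of the TGF-β superfamily that restrains muscle growth. It binds the type II receptors ACVR2B and ACVR2A on the cell surface, which recruit and activate the type I receptors ACVR1B and TGFBR1. The type I receptors phosphorylate SMAD2 and SMAD3, which enter the nucleus together with SMAD4 and regulate transcription. SMAD7 and SMAD6 are inhibitory SMADs. SMAD7 blocks the type I receptors broadly, and SMAD6 acts mainly on the branch that responds to bone morphogenetic proteins (BMPs). TGFBR2 is the type II receptor of the TGF-β ligands rather than of MSTN.

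Expression was given as FPKM, the fragments of a gene divided by its length and by the mapped fragments of the library, which allows levels of different genes to be set side by side. The files hold no fragment counts. From the lowest values of 1841 genes with a single annotated transcript, 1 fragment on a transcript of 1 kb was worth roughly 0.048 to 0.0588 FPKM, depending on the library. By this rough guide *Acvr2b*, the lowest member, rested on about 18 to 49 fragments per library and every other member on 150 or more. *Mstn* itself measured 0.0211, 0 and 0.0399 FPKM in WT and 0.0269, 0.0586 and 0.039 FPKM in MSTN-KO, about 0 to 3 fragments per library, so its RNA could not check the genotype. For the line C11, the paper reports a disrupted target sequence in genomic DNA and no MSTN protein by Western blot. Nothing in the sources used here says that the replicates were separate cultures, so the p-values measure only the spread between these libraries. In these bulk samples, fewer cells of a kind and less RNA per cell cannot be told apart.

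Markers of the cell state were read before the members. *Myod1*, which drives the myogenic program, lay between 90.8 and 167.5 FPKM, and the muscle intermediate filament gene *Des* between 324.6 and 807.3 FPKM. Both were lower in MSTN-KO (log2 fold changes -0.58 and -0.96, limma adjusted p = 0.00986 and 0.000995), and *Pax7*, of the same list, was higher (0.64, limma adjusted p = 0.0415). Of 8 markers of differentiated muscle, 7 were analysed. *Ckm* and *Myh3* reached 1 FPKM in WT only, and the other 5 were all lower in MSTN-KO with a limma adjusted p under 0.05. The summed level of the 7 was 825.1, 777.4 and 227.3 FPKM in the WT replicates and 32.3 to 53.3 FPKM in the MSTN-KO replicates, with none of the 7 at 0. WT replicate 3 was thus apart from the other WT libraries in these genes. The part of differentiation state in the results for the receptors and SMADs was not tested. The endothelial markers *Pecam1*, *Cdh5* and *Kdr* summed to at most 0.112 FPKM in any library.

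In WT cells, the order of the mean levels in FPKM was *Smad4*, *Tgfbr2*, *Smad3*, *Smad2*, *Smad7*, *Smad6*, *Acvr1b*, *Tgfbr1*, *Acvr2a* and *Acvr2b*. The first 4 of these overlapped in their replicates, with means from 20 ± 3.44 FPKM for *Smad4* down to 16.3 ± 0.939 FPKM for *Smad2* (SD, n = 3). From *Smad7* (10.2 ± 1.02 FPKM) downward, each gene lay below all WT replicates of the gene before it. The MSTN type II receptors were at the bottom, with 1.52 ± 0.121 FPKM for *Acvr2a* and 0.486 ± 0.184 FPKM for *Acvr2b*. In MSTN-KO cells *Smad4* was again at the top and *Acvr2b* at the bottom, but *Smad6*, *Smad7* and *Smad2* overlapped in the middle, and so did *Tgfbr1* and *Acvr2a*. Together the 5 receptors summed to 25.3 to 33 FPKM in WT and 22.4 to 26.6 FPKM in MSTN-KO. The 5 SMADs summed to 66.1 to 72.2 FPKM in WT and 65.6 to 76.2 FPKM in MSTN-KO.

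**Figure D1:**
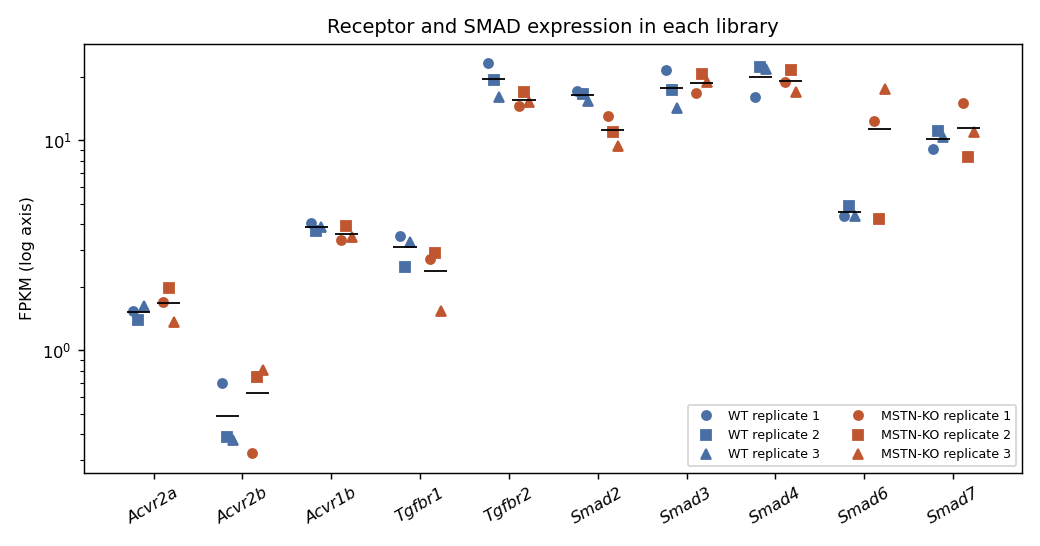
FPKM on a log axis for the 10 genes, with 1 point per library (WT left and blue, MSTN-KO right and orange) and a bar at each group mean of 3. *Smad2* is the only one of the 10 whose groups do not overlap, and *Smad6* in MSTN-KO replicate 2 sits at 4.21 FPKM, just below the WT libraries and far below the other MSTN-KO libraries.

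The comparison of MSTN-KO with WT asks whether the cells changed the RNA of the receptors and SMADs after the ligand gene was disrupted. Of the 9 tested members, 1 was lower in MSTN-KO, *Smad2*, and 0 were higher, by limma on log2(FPKM + 1) with a Benjamini-Hochberg adjusted p under 0.05 over all 10837 genes. Among all tested genes, 8.96% were called lower and 8.78% higher. At an unadjusted p under 0.05 there were 2 of the 9 members, *Smad2* and *Smad6*, against 32.6% of all tested genes. By the study's own criterion, an unadjusted p under 0.05 and at least a log2 difference of 1 in either direction, 0 of the 9 members passed, against 3.51% of all tested genes. That count rests on the pseudocount of 1 FPKM used here, and the study names none. *Smad6* was just short of the cut, at 0.98 (limma unadjusted p = 0.0119). Its log2 fold change was 1.09 with a pseudocount of 0.1 FPKM and 1.03 after quantile normalization. The groups did not overlap for 1 of the 9, while this held for 37.4% of all tested genes. The median log2 fold change was -0.05 over the 9 members and -0.00 over all tested genes.

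**Figure D2:**
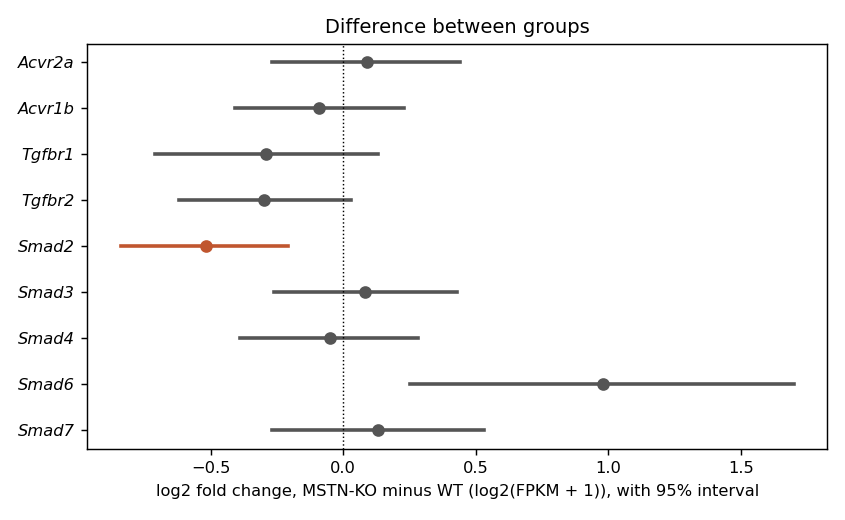
Log2 fold changes of the 9 tested members, MSTN-KO minus WT on the log2(FPKM + 1) scale, with limma's 95% intervals. The interval of *Smad2* (orange, adjusted p under 0.05) lies below 0, that of *Smad6* lies above 0 but was not called after adjustment, and the other 7 include 0.

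The type II receptors of MSTN were low, and their groups overlapped. *Acvr2a* had 1.54, 1.39 and 1.63 FPKM in the WT replicates and 1.7, 1.99 and 1.37 FPKM in those of MSTN-KO. The highest and the lowest of the 6 values were both MSTN-KO libraries. Its log2 fold change was 0.09 with a 95% interval from -0.27 to 0.44 (limma adjusted p = 0.745). It was 0.32 after correction for length and GC content (limma adjusted p = 0.0972) and 0.01 without MSTN-KO replicate 2. *Acvr2b*, the main high-affinity receptor of MSTN, had 0.698, 0.386 and 0.373 FPKM in WT and 0.324, 0.748 and 0.806 FPKM in MSTN-KO. It stayed under 1 FPKM in every library and so was not among the tested genes. Its groups overlapped (p = 0.6 in a two-sided exact permutation test, whose smallest possible p is 0.1 with 3 libraries per group). Without the filter its log2 fold change was 0.12, with an interval from -0.20 to 0.45 (limma adjusted p = 0.606 over 14548 genes). Since log2(FPKM + 1) compresses such low values, a change of this gene would look smaller than it was.

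The type I receptors and *Tgfbr2* had small differences with overlapping groups. *Acvr1b* (ALK4) was at 4.05, 3.7 and 3.85 FPKM in WT and 3.34, 3.91 and 3.48 FPKM in MSTN-KO. MSTN-KO replicate 2 was inside the WT range and the other 2 were below it. The log2 fold change was -0.09, with an interval from -0.41 to 0.23 (limma adjusted p = 0.704). *Tgfbr1* (ALK5), shared with the TGF-β ligands, had 3.49, 2.49 and 3.29 FPKM in WT and 2.72, 2.9 and 1.54 FPKM in MSTN-KO. Its low value in MSTN-KO replicate 3 set most of the difference, which was -0.29 on the log2 scale (interval -0.71 to 0.13, limma adjusted p = 0.324) and -0.09 without that library. *Tgfbr2* was the most abundant receptor, at 23.2, 19.3 and 16.1 FPKM in WT and 14.6, 17 and 15.2 FPKM in MSTN-KO. MSTN-KO replicate 2 exceeded WT replicate 3, and the log2 fold change was -0.30 with an interval from -0.62 to 0.03 (limma adjusted p = 0.19). Without WT replicate 1 it was -0.17 (limma adjusted p = 0.429), and without WT replicate 3 it was -0.42 (limma adjusted p = 0.0958).

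*Smad2*, 1 of the pair of SMADs that the MSTN receptors phosphorylate, was the member that fell. It had 17.1, 16.6 and 15.3 FPKM in the WT replicates and 13, 11 and 9.44 FPKM in the MSTN-KO replicates. All 3 MSTN-KO values lay below the lowest WT value (p = 0.1 in the two-sided exact permutation test, the smallest it can give). The mean was 11.1 ± 1.8 FPKM against 16.3 ± 0.939 FPKM (SD, n = 3), a ratio of 0.682. The log2 fold change was -0.52 with a standard error of 0.15 and an interval from -0.84 to -0.21 (limma adjusted p = 0.0257). The adjusted p rose to 0.0716 without WT replicate 1, 0.103 without WT replicate 2 and 0.076 without MSTN-KO replicate 3, and to 0.0535 without the filter on low values. The fold change itself stayed between -0.63 and -0.42 with any 1 library left out.

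*Smad2* lies on chromosome 18 of GRCm38 (76241580 to 76310963, plus strand), with *Smad4* and *Smad7* on the same chromosome. The 268 tested genes of chromosome 18 had a median log2 fold change of -0.11, and 68.3% of them were lower in MSTN-KO. *Smad4* (73639009 to 73703780) and *Smad7* (75367529 to 75395935) had log2 fold changes of -0.05 and 0.13. Across the 6 libraries, the genes whose log2 values followed *Smad2* most closely were *Zfp28*, *Mtmr10* and *Yeats2*, with Pearson's r of 0.9997, 0.9854 and 0.9831. These values describe 6 libraries in 2 groups that differ as a whole, with no test.

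*Smad3* is the partner of *Smad2* at the type I receptors. Its values were 21.7, 17.4 and 14.3 FPKM in WT and 16.7, 20.6 and 18.9 FPKM in MSTN-KO, so the MSTN-KO libraries lay within the WT range. The log2 fold change was 0.08, with an interval from -0.26 to 0.43 (limma adjusted p = 0.756). *Smad4*, the common partner of the receptor-activated SMADs, had 16, 22.2 and 21.8 FPKM in WT and 19, 21.5 and 17 FPKM in MSTN-KO. Again the MSTN-KO values were inside the WT range, with a log2 fold change of -0.05 and an interval from -0.39 to 0.28 (limma adjusted p = 0.842). *Smad4* had the highest mean of the members, 19.6 FPKM over all libraries. The genes most like it over the 6 libraries were *0610009B22Rik*, *St3gal6* and *Mfap1a*, with Pearson's r of 0.9717, 0.9628 and 0.9622.

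Ratios within a library do not change when all genes of the library are scaled by a common factor, and they were read without a test. The FPKM ratio of *Smad3* to *Smad2* was 1.27, 1.05 and 0.936 in WT against 1.29, 1.87 and 2 in MSTN-KO. The ranges stayed apart, but WT replicate 1 and MSTN-KO replicate 1 were almost equal. On the log2 scale the mean ratio was 0.11 ± 0.22 in WT and 0.76 ± 0.34 in MSTN-KO (SD, n = 3). The ratio of *Smad4* to *Smad2* was 0.937 to 1.42 in WT and 1.46 to 1.96 in MSTN-KO. Both ratios have *Smad2* as the denominator, so they are not separate results. The share of other gene pairs whose ratios stay apart is not given here. The receptor ratios overlapped between the groups. *Tgfbr1* to *Acvr1b* ran from 0.673 to 0.862 in WT and from 0.442 to 0.816 in MSTN-KO, and *Acvr2b* to *Acvr2a* from 0.229 to 0.452 and from 0.191 to 0.587.

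**Figure D3:**
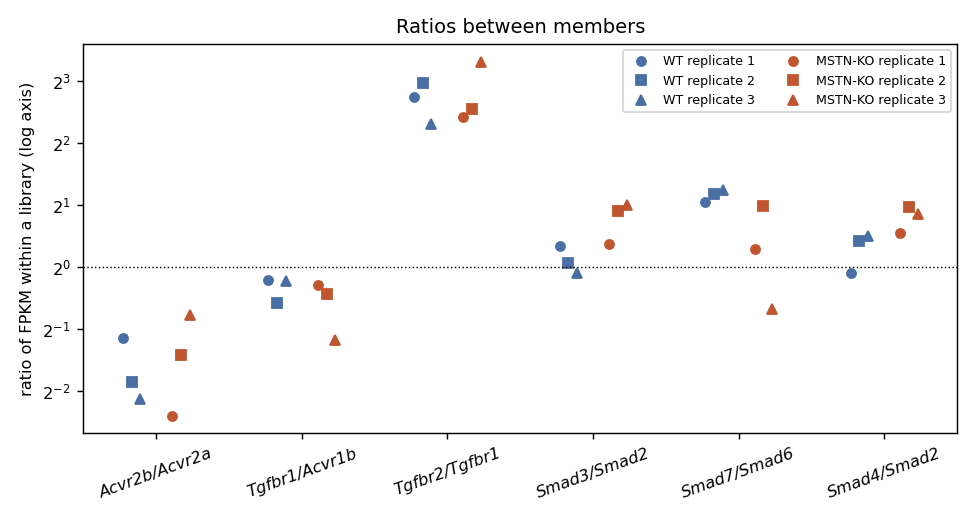
Ratios of FPKM between pairs of members within each library, on a log axis with 1 point per library (WT blue, MSTN-KO orange) and a dotted line at a ratio of 1. The ratios of *Smad3* and *Smad4* to *Smad2*, which share their denominator, are higher in all 3 MSTN-KO libraries than in all 3 WT libraries. *Smad7*/*Smad6* is lower but spreads from 0.626 to 1.98 within MSTN-KO.

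*Smad6* was the member with the largest difference and the largest spread. It had 4.37, 4.87 and 4.36 FPKM in the WT replicates and 12.3, 4.21 and 17.6 FPKM in the MSTN-KO replicates. MSTN-KO replicates 1 and 3 were well above every WT library, whereas MSTN-KO replicate 2 was below every WT library. The mean was 11.4 ± 6.74 FPKM in MSTN-KO against 4.53 ± 0.29 FPKM for the WT group (SD, n = 3). The log2 fold change was 0.98, with a standard error of 0.33 and an interval from 0.25 to 1.70, and it missed the threshold after adjustment (limma adjusted p = 0.0606). Without MSTN-KO replicate 2 it was 1.51 and passed (limma adjusted p = 7.02e-05), and without MSTN-KO replicate 3 it was 0.59 and did not. The SD of its log2 values between the MSTN-KO libraries, 0.951, was larger than that of 99.7% of tested genes, while its SD between the WT libraries, 0.0745, was larger than that of 16.9%.

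*Smad7*, the other inhibitory SMAD, had 9.06, 11.1 and 10.4 FPKM in WT and 15.1, 8.34 and 11 FPKM in MSTN-KO. The lowest and the highest of the 6 values were MSTN-KO replicates 2 and 1, and replicate 2 was again the lowest of its group. The log2 fold change was 0.13 with an interval from -0.27 to 0.53 (limma adjusted p = 0.661). The ratio of *Smad7* to *Smad6* was steady in WT, from 2.07 to 2.37, and was 1.23, 1.98 and 0.626 in the MSTN-KO replicates. *Smad6* was therefore the less abundant inhibitory SMAD in 5 of the 6 libraries and the more abundant in MSTN-KO replicate 3.

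The promoters of the SMAD genes on chromosome 9 are shown because *Smad6* was high in 2 MSTN-KO libraries, while *Smad3*, on the same strand of that chromosome, stayed within its WT range. SMAD3 and SMAD4 bind short DNA elements, and the palindrome GTCTAGAC joins a pair of them. Promoter sequences from RefSeq (GRCm38.p6, 250 bases before to 50 bases after the annotated start) were searched for 7 of the 10 genes. Those of *Smad2*, *Smad4* and the other inhibitory SMAD, *Smad7*, were not searched, so whether they hold the elements below was not tested. The letters GTCTAGAC, read on both strands, occurred in 70 of 32851 promoters of this length (0.213%). *Smad6* was the only 1 of the 7 that held them, and they begin 4 bases before its annotated start. GGCGCC, a GC-rich element that SMADs also bind, occurred in 11.9% of promoters and was found in those of *Acvr1b* and *Tgfbr1*. CAGAC, a single element, occurred in 49.6%. It was found in promoters of *Acvr2a*, *Acvr2b*, *Tgfbr1* and *Tgfbr2*, and not in that of *Smad6*. A match of letters is a description and not a binding site. The sequences run 5′ to 3′ on the minus strand, *Smad6* at chr9:64022010-64022309 and *Smad3* at chr9:63757945-63758244. Capitals mark GTCTAGAC, and the *Smad3* window holds none of the 3 elements.

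Smad6: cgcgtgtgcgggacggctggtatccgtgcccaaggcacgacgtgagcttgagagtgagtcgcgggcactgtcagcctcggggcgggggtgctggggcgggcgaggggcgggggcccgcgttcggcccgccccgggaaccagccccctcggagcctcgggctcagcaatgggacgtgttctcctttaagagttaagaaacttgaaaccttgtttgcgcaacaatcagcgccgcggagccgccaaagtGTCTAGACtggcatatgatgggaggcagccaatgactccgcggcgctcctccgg

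Smad3: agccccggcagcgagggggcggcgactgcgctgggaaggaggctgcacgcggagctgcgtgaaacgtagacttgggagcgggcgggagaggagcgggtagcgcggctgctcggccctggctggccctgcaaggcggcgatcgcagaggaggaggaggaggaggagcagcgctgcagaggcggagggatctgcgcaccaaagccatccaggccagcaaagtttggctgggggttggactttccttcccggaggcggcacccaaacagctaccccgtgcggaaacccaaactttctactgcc

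The other genes of the pathway were read from a list of 67 symbols, of which 63 were analysed and 55 tested. Of these, 4 reached 1 FPKM in libraries of 1 group only, *Fst*, *Inha* and *Smad9* in WT and *Tgfbr3* in MSTN-KO. A gene that passes the filter only through the group where it is high is selected toward a difference, so the counts below leave these 4 out. Of the other 51, 10 were lower and 2 higher in MSTN-KO with a limma adjusted p under 0.05. Of all tested genes that reached 1 FPKM in both groups, 7.71% were lower and 8.54% higher. The median log2 fold change was -0.19 over the 51 and 0.01 over all such genes. Earlier results of these data had shown lower expression along chromosomes 1, 13 and 14, where 6 of the 8 pathway genes were called lower, beside 21.6% of all such genes there. On the other chromosomes it was 4 of 43, beside 5.69%. The members of the receptor and SMAD list include 0 genes on these chromosomes. The part of the chromosomes in these differences was not tested.

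Among the ligands and their antagonists, 2 of 7 genes fell, *Inhba* on chromosome 13 and *Tgfb2* on chromosome 1, and 1 rose, *Inhbb*, on chromosome 1. *Inhba*, which encodes the subunit of activin A, had 4.3 to 6.71 FPKM in WT and 1.58 to 3.57 FPKM in MSTN-KO (log2 fold change -0.91, limma adjusted p = 0.0116). *Tgfb2* had 4.41 to 5.22 FPKM in WT and 1.83 to 2.93 FPKM in MSTN-KO (log2 fold change -0.80, limma adjusted p = 0.00596). *Fst*, the gene of the activin and MSTN antagonist follistatin, had 1.64, 1.91 and 1.03 FPKM in WT and 0.529, 0.262 and 0.519 FPKM in MSTN-KO. *Inha* had 1.33 to 1.65 FPKM in WT and 0.515 to 0.645 FPKM in MSTN-KO. *Inhbb*, the subunit of activin B, rose from 5.86 to 7.21 FPKM in WT to 11.1 to 12.4 FPKM in MSTN-KO (log2 fold change 0.73, limma adjusted p = 0.00395). *Gdf11*, the closest relative of *Mstn*, had -0.29 and did not pass (limma adjusted p = 0.18). *Tgfb1*, the most abundant ligand of the list, had 41 to 50.9 FPKM in WT and 51.8 to 60.8 FPKM in MSTN-KO. Its log2 fold change was 0.36, and it did not pass either (limma adjusted p = 0.0751).

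Of the other receptors and co-receptors, *Tgfbr3*, which encodes the co-receptor betaglycan, had 0.242, 0.166 and 0.103 FPKM in WT and 1.08, 1.02 and 0.807 FPKM in MSTN-KO, and the filter on a mean of 1 FPKM removed it. The BMP receptors *Bmpr1a*, on chromosome 14, and *Bmpr2*, on chromosome 1, fell, with log2 fold changes of -0.88 and -0.71 (limma adjusted p = 0.0216 and 0.0313). *Acvr1*, at 18.6 to 25.2 FPKM over the 6 libraries, was not called (0.10, limma adjusted p = 0.654). Of the 3 other SMADs, which serve the BMP branch, *Smad5*, on chromosome 13, fell by 0.69 on the log2 scale (limma adjusted p = 0.00674). *Bmpr1a*, *Bmpr2* and *Smad5* thus lie on the chromosomes of lower expression given above. *Smad1* was not called, at -0.27, and *Smad9* had 0.223 to 1.13 FPKM over the 6 libraries.

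Adaptors, enzymes and nuclear partners act on the receptors and SMADs. Of the 6 receptor adaptors and SMAD anchors, 0 passed by limma at an adjusted p under 0.05, and 1, *Dab2*, was under 0.05 unadjusted (log2 fold change 0.32). Of 13 ubiquitin ligases, deubiquitinases and phosphatases, *Stub1*, a chaperone-linked ubiquitin ligase, was the 1 call, higher by 0.44 (limma adjusted p = 0.0325). Of 9 nuclear partners and corepressors, *Tgif2*, a repressor of SMAD-driven transcription, was the 1 call, lower by 0.91 on the log2 scale (limma adjusted p = 0.00133).

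Of 10 tested target genes of SMAD2 and SMAD3, 4 fell and 0 rose by limma, beside 8.96% and 8.78% of all tested genes, with 1 higher at an unadjusted p under 0.05 (*Junb*, 0.43). *Tagln*, an actin-binding protein of smooth muscle and early muscle cells, had 151.3 to 194.5 FPKM in WT and 59.6 to 78.8 FPKM in MSTN-KO (log2 fold change -1.33, limma adjusted p = 3.83e-05). *Cdkn1a*, an inhibitor of the cell cycle that is also induced in differentiating myoblasts, had a log2 fold change of -0.77, and *Tsc22d1* had -0.64. Of the 10, 6 were not called, among them *Ccn2* at 0.15 and *Pmepa1*, a feedback inhibitor, at -0.29 (limma adjusted p = 0.104). The markers of differentiated muscle were lower in the same libraries, as given above, and their part in these differences was not tested.

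**Figure D4:**
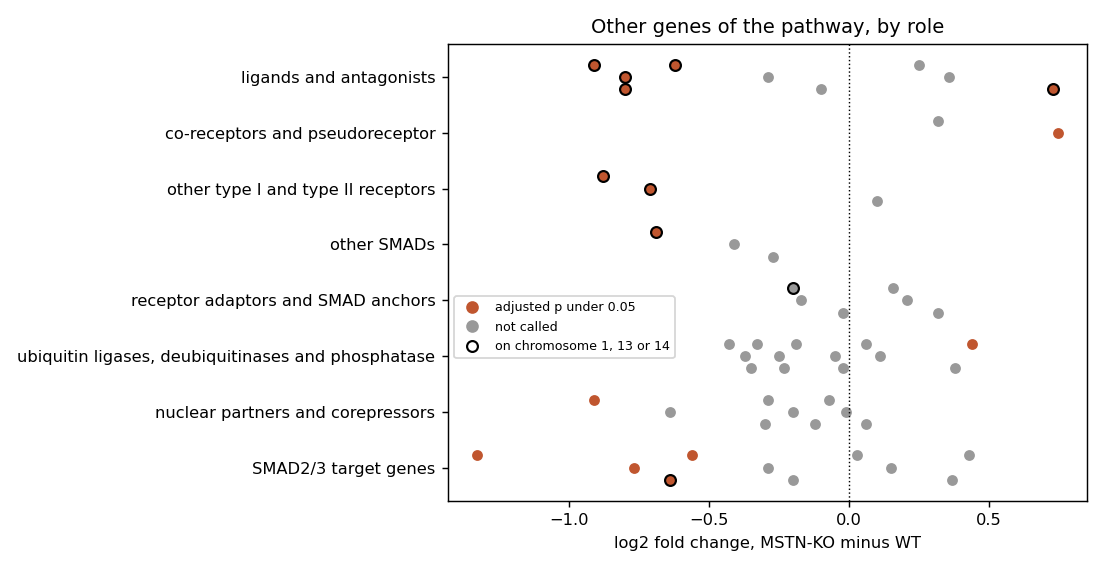
Log2 fold changes, MSTN-KO minus WT, of the 55 tested pathway genes by role, with 1 point per gene. Orange points had a limma adjusted p under 0.05 and black rims mark genes on chromosomes 1, 13 or 14. *Fst*, *Inha*, *Smad9* and *Tgfbr3*, which reached 1 FPKM in 1 group only, are included. The lower called genes of the ligand and receptor rows all carry a black rim, and 3 of the 4 lower target genes do not.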

How the data were processed

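RNA-seq of 3 WT and 3 MSTN-KO libraries was analysed. The authors sequenced on an Illumina HiSeq system and deposited FPKM values per gene and library, without pooling. The submitters' processing notes name Bowtie 0.12.2 and the build mm8, with no role. The gene filter is not given in the sources used here. FPKM divides by the fragments of the whole library, so a few abundant genes lower all others. Symbols and positions came from GENCODE M21 (GRCm38) by Ensembl identifier.

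Genes that reached 1 FPKM in any library were kept, and their log2(FPKM + 1) values entered limma 3.58.1 (R 4.3.3, eBayes with trend, group as the only term). Adjusted p-values are Benjamini-Hochberg values over all tested genes. Intervals are 95% intervals, and permutation tests covered all regroupings. Fold changes on this scale understate those of low genes. The fit was tested on simulated data. The members and lists were chosen with earlier results of these data known. Named genes are all members, *Mstn*, up to 3 called genes per direction in each pathway list, and the 3 genes most like the member with the lowest adjusted p and the one with the highest mean. Other pathway genes and markers named in the text were chosen after their values were seen. The values of 1 target gene are not reported here. The estimate of FPKM per fragment was set after the values were seen. It is percentile 10 of FPKM times length in kb among values under 0.4. Counts over genes that reached 1 FPKM in both groups were added after the values were seen. Alternatives were other pseudocounts, filters and scalings, no trend, a correction for length and GC content (mgcv 1.9.3, 99.3% of genes), the replicate number as a block and leaving out each library. Python 3.11.15 was used elsewhere.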

Additional observations from a re-analysis of the deposited data

How the results depend on the processing

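In 16 alternatives *Smad2* had a negative fold change each time and kept its call in 11, with log2 fold changes from -0.80 to -0.37 and limma adjusted p from 0.0094 to 0.103. Without the filter on low values, and with the replicate block together with the length and GC correction, 0 members were called lower, with *Smad2* at -0.52 (limma adjusted p = 0.0535) and -0.37 (0.0621). Counts of pathway genes in this section are over the 55 tested. They include the 4 genes that reached 1 FPKM in 1 group only, which the filter selects toward a difference. The fit as reported gave 12 lower and 3 higher over these 55. The FPKM of all genes summed to 723705 to 764524 in the WT libraries and 856314 to 999579 in the MSTN-KO libraries. Scaling to a sum of 1000000 moved the median of all genes to -0.26. It gave 2 members called lower (*Tgfbr2* joined, at -0.57), 20 lower pathway genes, and 350 higher and 2367 lower genes in all, and changed the sign of *Acvr2a* (-0.09), *Smad3* (-0.19) and *Smad7* (-0.13), all above that median. Quantile normalization changed the sign of *Acvr1b* (0.04). The replicate block gave 1 higher member, *Smad6* (0.98, limma adjusted p = 0.00514). The numbers did not pair the libraries, with r of -0.0153, -0.128 and -0.142 between the deviations of same-numbered libraries.

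With 1 library left out, 0 to 1 members were higher and 0 to 1 lower. Of the 55 tested pathway genes, again with those 4 included, 2 to 6 were higher and 7 to 14 lower. Of all genes, 419 to 1175 were higher and 611 to 1233 lower. The highest counts came without MSTN-KO replicate 2 and the low ones of all genes without WT replicate 2. Signs changed for *Smad3* without WT replicate 3 (-0.06, in a range of -0.06 to 0.23), for *Smad4* without WT replicate 2 (0.03), WT replicate 3 (0.01) or MSTN-KO replicate 3 (0.03, in a range of -0.20 to 0.03), and for *Smad7* without MSTN-KO replicate 1 (-0.07, in a range of -0.07 to 0.32). The cause was not tested. The low depth of *Acvr2b* limits what could be seen for that gene.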

Other observations

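MSTN-KO replicate 2 had *Smad6* near the WT level. Of 9 genes of BMP signalling looked up after these values were seen, and given without a test, it was the lowest of its group for 7 and not for *Hey1* and *Nog*. *Hey1* had 7.79, 9.12 and 10.6 FPKM in MSTN-KO. *Id1*, an inhibitor of myogenic differentiation, had 209.4, 221.4 and 177 FPKM in the WT replicates and 267, 112.9 and 193 FPKM in the MSTN-KO replicates. *Id3* had 326.2, 189.4 and 246.2 FPKM in the MSTN-KO replicates and *Atoh8* 13.6, 6.99 and 12.5 FPKM. For *Smad6*, *Smad7*, *Id1*, *Id3* and *Atoh8*, MSTN-KO replicate 2 was the lowest of its group, by factors of 2.92, 1.32, 1.71, 1.3 and 1.79 to the next library. The rest of the 7 were less apart or low. *Id2* had 45.5, 33.1 and 37.4 FPKM in the MSTN-KO replicates and *Grem1* 11.9, 6.45 and 6.84 FPKM. *Bmp4* (0.787, 0.546 and 0.784 FPKM) and *Id4* (0.134, 0.036 and 0.0384 FPKM) stayed under 1 FPKM in every library. MSTN-KO replicate 2 was the lowest of its group for 39.9% of the 10327 tested genes with a mean of at least 1 FPKM, which leave out *Bmp4* and *Id4*.

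*Nog*, the gene of the BMP antagonist noggin, was also looked up afterwards. It had 2.44, 3.08 and 3.22 FPKM in WT and 0.408, 0.98 and 0.819 FPKM in MSTN-KO, so it reached 1 FPKM in WT only and is given without a test. The genes most like *Smad6* over the 6 libraries were *Trmu*, *Rnd2* and *Manbal*, with Pearson's r of 0.9943, 0.992 and 0.9906.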
